A study of Caenorhabditis elegans with 2 samples.

Results

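The flp and nlp genes of Caenorhabditis elegans encode neuropeptide precursors, and UNC-62 ChIP-seq peaks near their starts are described here. They were taken as the protein-coding genes of the Ensembl WBcel235 annotation whose name is flp or nlp followed by a number. This gave 102 genes of 19985, of which 31 were flp and 71 were nlp, and the 19883 other protein-coding genes served for comparison. The labels give a single group with 2 biological replicates. Both came from strain OP602, a stably transgenic line in which UNC-62 carries GFP-FLAG at its C-terminus, and the insertion is said to target unc-62, with no promoter named in the labels. Chromatin came from whole L4 larvae, the last larval stage, with both sexes pooled, and was sheared by sonication. No untagged or mutant group was analysed here, and in whole animals a peak cannot be placed in any one cell type.

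A transcription factor of the Meis/Homothorax family with a homeodomain, UNC-62 binds DNA together with PBC proteins such as CEH-20 and often with Hox proteins. Neuropeptides are cut from longer precursors, packed into dense-core vesicles and released to act mostly on G protein-coupled receptors. The flp genes encode FMRFamide-like peptides, used widely in neurons, while the nlp name covers a mixed group that also holds antimicrobial peptides of the epidermis and peptides made in the intestine.

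Each deposited peak carries a signal value from the authors, used here to rank peaks within their own list and to describe single peaks, with rank 1 the highest. The lists in ce11 were read. There were 15466 peaks for replicate 1, 24524 for replicate 2 and 30000 for the pooled replicates. A short list of 114 peaks passed the authors' threshold on the irreproducible discovery rate (IDR), a measure of how well ranks repeat between replicates. A place in this list did not mean a like rank in both replicates, as the values of nlp-24 below show. Pooled signal values ran from 8.77 to 105 with a median of 11.4, and those of IDR peaks from 32.5 to 105. The pooled list and both replicate lists include weak background regions, so a summit in any of them is not by itself evidence of binding. Read depth is unknown. A gene was counted as having a peak where a summit, the point the list marks within a peak, lay between 2000 bp upstream and 500 bp downstream of any of its annotated transcript starts. Positions below are distances from the start whose window holds the summit, negative upstream.

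Sequences around 5 summits that the results turn on are shown, with 100 bp to either side unless an annotated UTR was left out. They were read from the RefSeq genome of WBcel235 (ce11), 5′ to 3′ on the gene's strand. The nlp-24 stretch (chrV:11615931-11616131, plus strand) is the summit in an IDR peak, that of nlp-33 (chrV:11147357-11147531, plus strand) lies inside the gene from the end of its annotated 5′ UTR, and that of nlp-34 (chrV:3979135-3979315, minus strand) lies between nlp-34 and nlp-31. The flp-4 stretch (chrII:10052963-10053163, plus strand) is the summit of best rank among flp genes, and that of flp-3 (chrX:10093858-10094058, minus strand) was added after its values were seen because it holds the Meis core. Capitals mark TGACAG, the Meis core, TGATNNAT, a PBC-Hox site, or GAGAGA, each on either strand. The nlp-24 stretch holds GAGAGA, the nlp-34 stretch TGACAG, and the flp-3 stretch TGACAG and 2 matches to TGATNNAT. The matches in the flp-3 stretch lie on the strand opposite to the one printed. Neither the nlp-33 nor the flp-4 stretch holds any of these.
nlp-24: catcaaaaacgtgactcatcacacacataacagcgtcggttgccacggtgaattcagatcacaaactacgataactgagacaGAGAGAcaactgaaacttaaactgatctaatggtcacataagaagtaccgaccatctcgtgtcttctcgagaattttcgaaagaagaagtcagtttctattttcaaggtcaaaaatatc
nlp-33: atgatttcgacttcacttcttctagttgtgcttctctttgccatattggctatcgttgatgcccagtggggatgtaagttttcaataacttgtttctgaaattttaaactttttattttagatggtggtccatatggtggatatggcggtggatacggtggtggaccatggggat
nlp-34: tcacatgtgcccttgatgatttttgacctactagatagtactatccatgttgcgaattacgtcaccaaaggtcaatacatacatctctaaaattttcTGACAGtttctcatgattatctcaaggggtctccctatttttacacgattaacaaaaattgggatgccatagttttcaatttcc
flp-4: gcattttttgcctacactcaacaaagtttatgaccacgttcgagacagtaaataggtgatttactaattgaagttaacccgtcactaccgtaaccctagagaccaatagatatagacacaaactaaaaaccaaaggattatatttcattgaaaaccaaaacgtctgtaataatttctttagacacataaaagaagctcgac
flp-3: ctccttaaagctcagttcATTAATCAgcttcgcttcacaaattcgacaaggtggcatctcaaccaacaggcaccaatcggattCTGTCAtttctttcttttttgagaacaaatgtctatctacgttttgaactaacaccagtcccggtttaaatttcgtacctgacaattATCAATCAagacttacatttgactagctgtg

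In the IDR list, nlp-24 was the 1 gene of the 102 with a summit in its window. That is 0.98% of the flp and nlp genes (95% exact Clopper-Pearson interval 0.0248% to 5.34%), beside 0.443% of the other protein-coding genes (88 of 19883). None of the 31 flp genes had one, which allows a share of up to 9.68%, and among nlp genes it was 1 of 71. In the far longer pooled list, 66 of the 102 had a summit, or 64.7% (54.6% to 73.9%), against 60.3% of the other genes. These shares are near each other, and the interval holds the share of the other genes. That depends on how summits are assigned, since with each summit counted only for the nearest protein-coding start the shares were 59.8% of the neuropeptide genes (49.6% to 69.4%) and 46.9% of the other genes, which the interval does not hold. All intervals here cover counting error over genes only, and no test was made on the gene list.

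The families differed most in the list of replicate 2. In the pooled list, 19 of 31 flp genes (61.3%, interval 42.2% to 78.2%) and 47 of 71 nlp genes (66.2%, 54% to 77%) had a summit. In replicate 1 alone they were 11 flp genes (35.5%, 19.2% to 54.6%) and 33 nlp genes (46.5%, 34.5% to 58.7%), with 37.4% of the other genes. In replicate 2 alone they were 8 flp genes (25.8%, 11.9% to 44.6%) and 42 nlp genes (59.2%, 46.8% to 70.7%), with 52.8% of the other genes. So the flp share lay under the share of the other genes with an interval that does not hold it in replicate 2, while in replicate 1 and in the pooled list the interval holds it. With each summit counted only for the nearest start, the replicate 2 share was 22.6% for flp genes (9.59% to 41.1%), against 40.6% of the other genes, which that interval holds. The difference, flp minus nlp, was -4.91 percentage points in the pooled list (95% Newcombe interval -25 to 14), -11 in replicate 1 (-29.4 to 9.8) and -33.3 in replicate 2 (-49.5 to -12.4). An interval wholly below 0 was obtained in replicate 2 and in neither of the other lists.

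Summits of both replicates stood in the windows of 25 genes, or 24.5% (16.5% to 34%), against 24.6% of the other genes. The 3 flp genes among them, 9.68% of the family (2.04% to 25.8%), were flp-4, flp-18 and flp-25, and the other 22 were nlp genes (31%, 20.5% to 43.1%). A further 19 genes had a summit in replicate 1 only (8 flp and 11 nlp) and 25 in replicate 2 only (5 flp and 20 nlp). Together these were 43.1% of the 102 (33.4% to 53.3%), beside 41% of the other genes. Neither replicate gave a summit for 15 flp and 18 nlp genes, together 32.4%, beside 34.4% of the other genes. Of these, 11 had a summit in the pooled list alone and 22 had none in any list. The 22 were 21.6% of the 102 (14% to 30.8%), beside 27.3% of the other genes. The intervals for flp (14.2% to 48%) and nlp (10.1% to 29.3%) also hold that share. The 9 flp genes with none were flp-5, flp-8, flp-9, flp-10, flp-21, flp-24, flp-26, flp-27 and flp-32, or 29% of the family, listed to account for every gene. The 13 nlp genes, 18.3% of theirs, were nlp-18, nlp-20, nlp-30, nlp-32, nlp-36, nlp-46, nlp-48, nlp-49, nlp-50, nlp-53, nlp-55, nlp-69 and nlp-79. A summit in a replicate but not in the pooled list was found for 14 genes. They are what remains of the 102 beside the 64.7% with a pooled summit and the 21.6% with none in any list. Of the other genes, 60.3% had a pooled summit and 27.3% had none in any list, and the rest had a replicate summit only. These remainders are near each other, and the 14 are listed to account for every gene. The 14 were flp-6, flp-20, flp-22, nlp-1, nlp-3, nlp-7, nlp-14, nlp-28, nlp-45, nlp-56, nlp-63, nlp-66, nlp-78 and nlp-80.

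**Figure D1:**
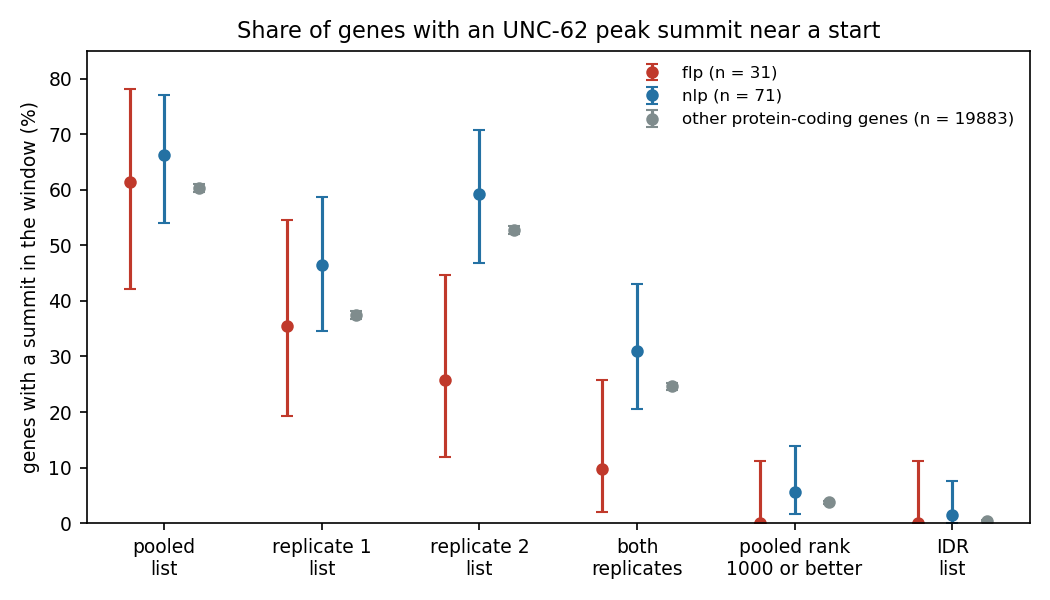
The share of genes (%) with a peak summit in the window is plotted for flp (red), nlp (blue) and other protein-coding genes (grey) in each list, with 95% exact Clopper-Pearson intervals as bars. The flp point falls below both others in replicate 1 (35.5%), in replicate 2 (25.8%) and in both replicates (9.68%). Of these, the flp interval leaves out the share of the other genes in replicate 2 only. In the pooled list the intervals of flp and nlp genes both hold the 60.3% of the other genes.

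By rank, the peaks of neuropeptide genes spread over the whole pooled list. The 19 flp genes with a summit had a median best rank of 18660 and signal values from 9.09 to 20.3 with a median of 10.7. The 47 nlp genes had a median best rank of 9970 and signal values from 8.88 to 32.9 with a median of 13. For the 11993 other genes with a summit the median best rank was 11592. Signal values at or above the median of the whole pooled list were found for 8 of the 19 flp genes (42.1%, 20.3% to 66.5%) and 30 of the 47 nlp genes (63.8%, 48.5% to 77.3%), beside 61.4% of the other genes. Order-statistic 95% intervals of the pooled medians were 10741 to 22512 for flp and 8156 to 16224 for nlp genes, and both hold the median of the other genes. In replicate 1 the medians were 8480 for flp (4591 to 11842), 7163 for nlp (4538 to 9824) and 6504 for other genes. In replicate 2 they were 13578 for flp (951 to 24249), 12069 for nlp (6311 to 14821) and 9905.5 for other genes. The intervals of both families again hold the medians of the other genes.

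Ranks of 1000 or better in the pooled list were reached by 4 genes, nlp-24, nlp-12, nlp-33 and nlp-31. They are 3.92% of the 102 (1.08% to 9.74%), against 3.74% of the other genes, a share near the background. No flp gene was among them, which for 31 genes allows a share of up to 9.68%, above that of the other genes. Of the first 30 neuropeptide genes by rank 5 were flp, beside 19 of all 66 with a pooled summit. The gene just inside this limit was nlp-31 at rank 962 and the one just outside was nlp-34 at rank 1028. Only nlp-24 passed the lowest IDR signal value, with 32.9 against 32.5.

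**Figure D2:**
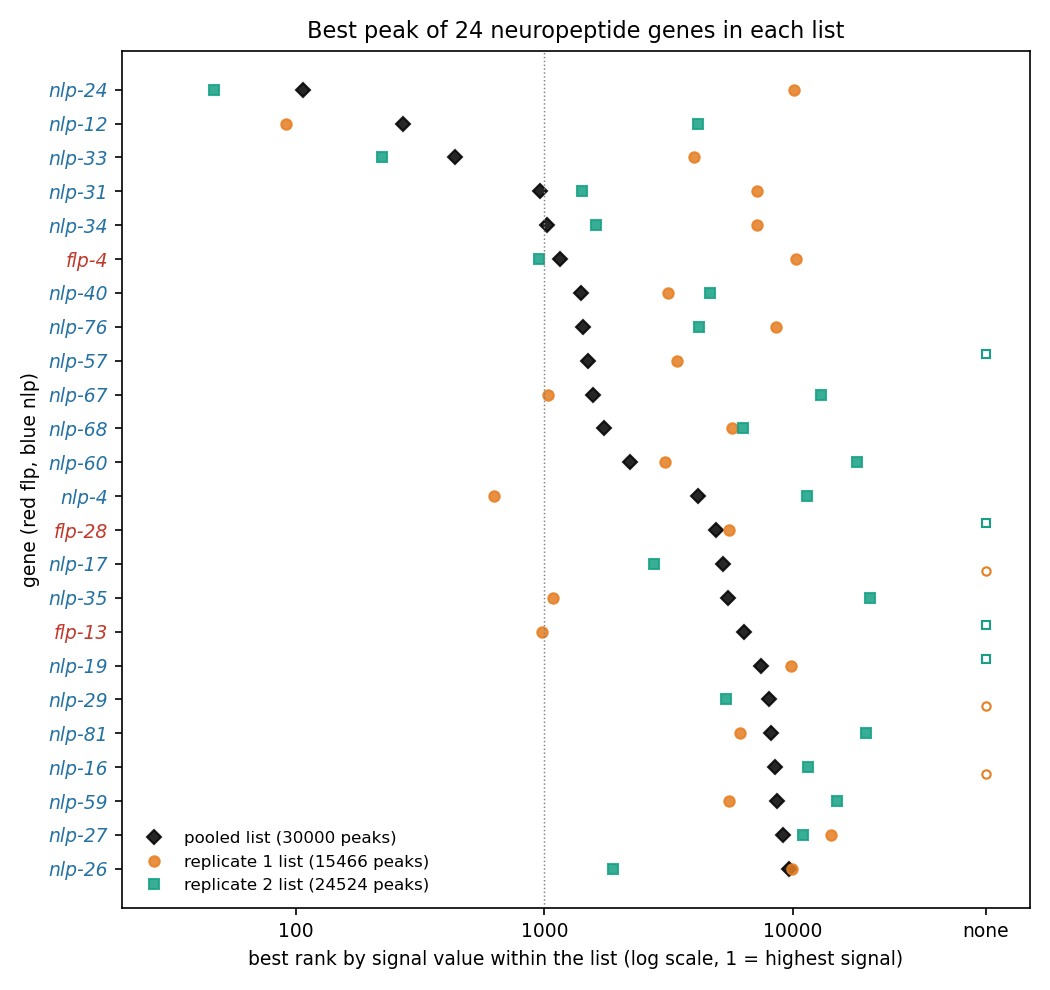
Best rank by signal value (log axis, 1 the highest) is shown for the 24 neuropeptide genes of best pooled rank in the pooled list (diamonds), in replicate 1 (circles) and in replicate 2 (squares), with open symbols for no summit. For nlp-24 the marks run from rank 47 in replicate 2 to 10151 in replicate 1, and for nlp-12 from 91 in replicate 1 to 4145 in replicate 2.

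The nlp-24 gene encodes a precursor of opioid-like peptides and lies on chromosome V from 11616376 to 11616828 on the plus strand. Its peak spanned 11615843 to 11616218, in intergenic sequence, with the summit at -345. This peak ranked 107 of 30000 in the pooled list with a signal value of 32.9, and also 107 of 114 in the IDR list. In replicate 1 a summit at the same base ranked 10151 with a signal of 7.57, while in replicate 2 a summit at -333 ranked 47 with a signal of 25.6. The position thus repeated in both replicates, and the high rank came from replicate 2. The replicate 1 signal lay under the median of its list, 8.13. A second pooled summit stood at -1251, with signal 17.9 and rank 2364.

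The reverse order of replicates was seen at nlp-12, a cholecystokinin-like peptide gene of the DVA neuron that acts in the control of locomotion. It lies on chromosome I from 1843384 to 1843959 on the plus strand, and its peak from 1843446 to 1843821 had the summit in the gene's own intron at +250. The pooled rank was 269 with a signal of 26.7. In replicate 1 the same base ranked 91 with a signal of 17.9. In replicate 2 the best summit of the window was elsewhere, at -423, with rank 4145 and signal 9.17, and none stood within 200 bp of the pooled one. A second pooled summit at -1061, of rank 595, was nearest to a start of the neighbouring emr-1, an emerin gene.

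Antimicrobial peptide genes of the epidermis held the next places. The peak of nlp-33, a gene induced by fungal infection (chromosome V from 11147346 to 11147737, plus strand), spanned 11147243 to 11147618 and had its summit in the gene's own intron at +85. It ranked 435 in the pooled list with a signal of 24.1, 4019 in replicate 1 with 9.54 at -71, and 223 in replicate 2 with 16.9 at +89. The nlp-33 summits of all 3 lists therefore lay within 200 bp of one another. The better rank was again in replicate 2, the longer list, with 24524 peaks against 15466.

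The nlp-29 cluster, a run of 6 antimicrobial peptide genes known for induction by infection and wounding, spans chromosome V from 3978825 to 3989770. Pooled summits stood in the windows of 4 of the 6, with 3 in replicate 1, 5 in replicate 2 and 3 in both. These are 66.7% in the pooled list (60.3% of the other protein-coding genes), 50% in replicate 1 (other genes 37.4%), 83.3% in replicate 2 (other genes 52.8%) and 50% in both (other genes 24.6%). The 6 genes are neighbours, and nlp-31 and nlp-34 share a summit. For nlp-31 the best pooled summit was at -1956, inside an intron of the receptor gene str-83 and nearer to the start of that gene, and ranked 962 with a signal of 20.9. In replicate 2 a summit at -1987 ranked 1417 with a signal of 11.6. Replicate 1 had no summit there, and its summit for nlp-31 was the one next to nlp-34, at rank 7163. The peak at nlp-34 spanned 3979027 to 3979402 and its summit at -81 is shared with the window of nlp-31. It ranked 1028 in the pooled list with 20.7, 7163 in replicate 1 with 8.28 and 1621 in replicate 2 with 11.3, the 3 summits falling at -81, -82 and -81. This was the peak of the cluster that both replicates placed at the same site to within 1 bp.

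Within the cluster, nlp-29 itself had a pooled summit at +298, in its coding exon, with rank 8032 and signal 13.7, a replicate 2 summit of rank 5389, and none in replicate 1. For nlp-27 the pooled summit at -239 ranked 9181 with a signal of 13.2. The replicate 1 summit at -192 ranked 14262. The best replicate 2 summit, at -6, ranked 10958 and was not within 200 bp of the pooled one. A single summit of replicate 2, of rank 16276, was found for nlp-28, and no summit of any list for nlp-30. Signal within the cluster was therefore higher at its nlp-34 and nlp-31 end than over nlp-29 to nlp-27 in the pooled list and in both replicates, where replicate 1 had 8.28 at nlp-34 and 6.8 at nlp-27.

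**Figure D3:**
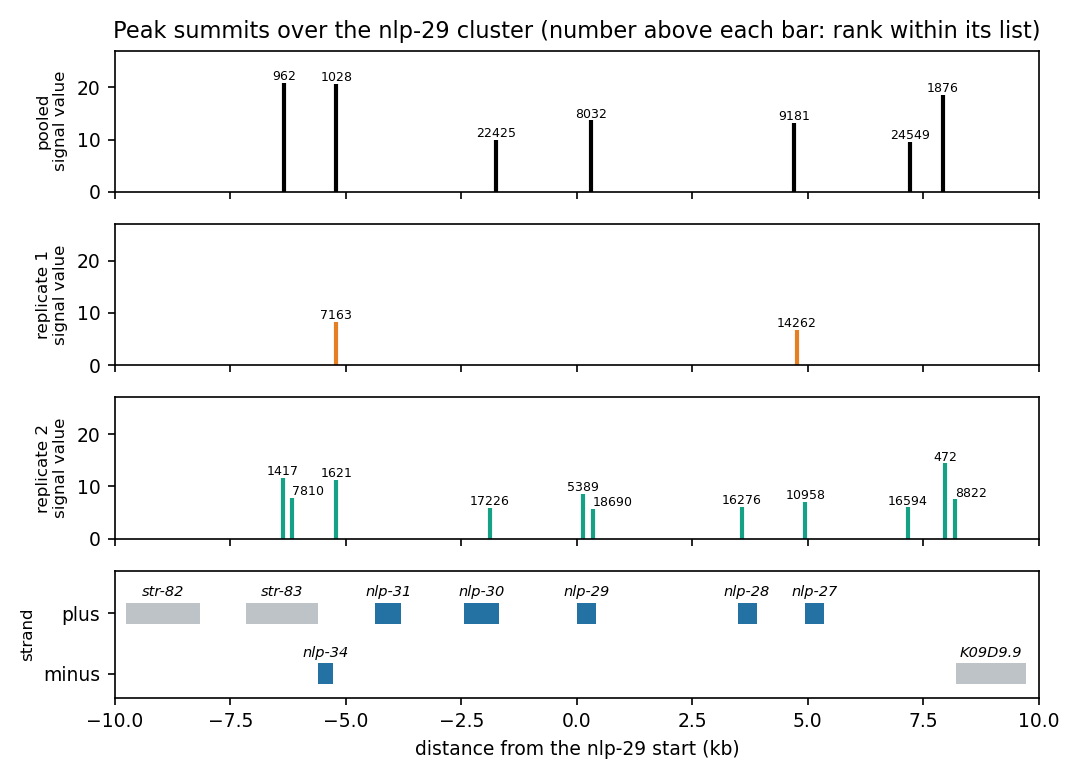
Summits over the nlp-29 cluster are drawn as bars of signal value against the distance from the nlp-29 start (kb) in the pooled list, replicate 1 and replicate 2, with the rank above each bar and the genes by strand in the lowest panel (blue, nlp genes, grey, others). The pooled bars of ranks 962 and 1028 stand beside str-83 and nlp-34, and replicate 1 has 2 bars where replicate 2 has more.

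Among flp genes the best pooled rank belonged to flp-4, on chromosome II from 10048868 to 10055594 on the plus strand. Its peak from 10052875 to 10053250 lay in the gene's own intron, at -1554 from the nearer of 2 annotated starts. It ranked 1158 with a signal of 20.3 in the pooled list, 10292 with 7.53 in replicate 1 and 951 with 12.5 in replicate 2. The summits of the replicates were at -1551 and -1553, within 3 bp of the pooled one, and flp-4 was the 1 flp gene with both replicates within 200 bp of its best pooled summit.

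The next 7 genes by pooled rank were all nlp. For nlp-40, an intestinal peptide that drives the defecation rhythm, the summit at -1927 in its own intron ranked 1410 with a signal of 19.6, with rank 3145 in replicate 1 and 4640 in replicate 2, at -1915 and -1928. For nlp-76 the summit at +2 ranked 1426, with rank 8602 in replicate 1 and 4206 in replicate 2. The nlp-57 summit at -700 ranked 1503, with 3422 in replicate 1 and none in replicate 2. For nlp-67 the summit at -286 ranked 1571, with 1038 at the same base in replicate 1. In replicate 2 a summit 20 bp from the pooled one ranked 14189 with a signal of 6.39. The best replicate 2 summit of the window was at +185 with rank 12987. These 4 genes had pooled signal values between 19.2 and 19.6, so their order among themselves rests on small differences. The 54 genes with a summit beyond the first 12 by rank had signals between 8.88 and 15.9.

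Peptides that promote sleep were chosen as a list of 5, and 4 of them had a pooled summit (80%), beside 60.3% of the other protein-coding genes. The flp-13 gene, expressed in the ALA neuron and active in sleep after stress, had one at -169 with rank 6358 and signal 14.4. In replicate 1 the same base ranked 976 with a signal of 12.3, and replicate 2 had none. For flp-11, a peptide of the RIS sleep neuron, the pooled summit at -304 ranked 10507, with rank 24249 in replicate 2 and none in replicate 1. The nlp-8 summit at -602 ranked 12722, with 2125 in replicate 2 and none in replicate 1. That of nlp-22, at -1452, ranked 18319, is shared with nlp-23 and is nearer to the start of nlp-23, and flp-24 had no summit in any list. None of the 5 had summits of both replicates, beside 24.6% of the other protein-coding genes, and a list of 5 is too short to set these shares apart.

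Ligands of named receptors gave pooled peaks far below the IDR signal values, or none. Of the NPR-1 ligands, which shape aggregation and foraging, flp-18 had a pooled summit at +103 in its own intron with rank 13456. Its replicate 1 summit, at +84, ranked 11842. Its replicate 2 summit, of rank 11453, was elsewhere at -398, and none stood within 200 bp of the pooled one. No list had a summit for flp-21. Of the EGL-6 ligands, which inhibit egg laying, flp-17 had 1 pooled summit of rank 22842 at -1600 and none in either replicate, and flp-10 had none. The locomotion gene flp-1 had a pooled summit of rank 10741 at -230, inside an intron of daf-10, and none in either replicate. For flp-7, a tachykinin-like peptide that controls fat loss, the pooled summit at -986 ranked 22504 and that of replicate 1, at -981, ranked 7556. None of these pooled summits ranked better than 10741.

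Ranks of 1000 or better were reached in replicate 1 by 3 of the 102 genes (2.94%), against 3.63% of the other genes, and in replicate 2 by 3 (2.94%), against 3.44%. No gene of the 102 reached it in both lists, which allows a share of up to 2.94%, against 0.835% of the other genes, so a difference was not detectable with 102 genes. In replicate 1 the genes within rank 1000 were nlp-12 at 91, nlp-4 at 630 and flp-13 at 976, and in replicate 2 they were nlp-24 at 47, nlp-33 at 223 and flp-4 at 951. The summit of nlp-4, named here after its values were seen, lay in its coding exon at +312 with pooled rank 4165, and replicate 2 had no summit within 200 bp. Across the 25 genes with summits of both replicates, Spearman's correlation of the best ranks was -0.32, and across 4893 other genes it was 0.20. Both are descriptions over genes of the same pair of libraries, and no interval was computed. The best ranks can belong to different summits of a window, since replicate summits within 200 bp of each other were found for 13.7% of the 102. The contrast in sign is therefore not read as a trait of these genes.

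**Figure D4:**
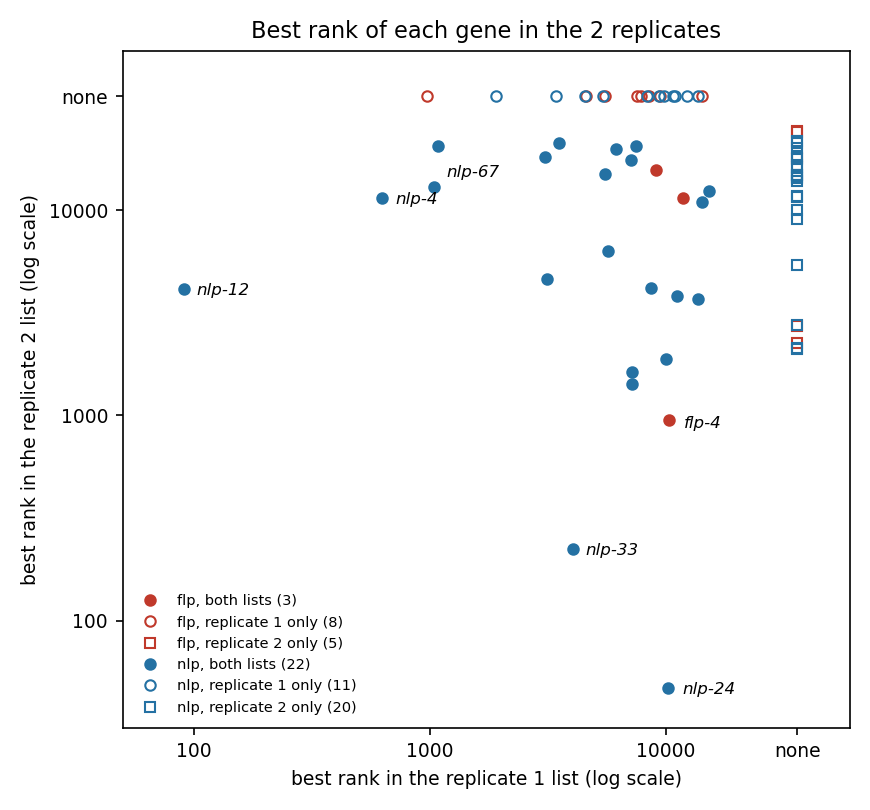
Best rank in replicate 1 is plotted against best rank in replicate 2 (both log axes) for each flp gene (red) and nlp gene (blue), with open symbols at the edges for genes with a summit in 1 replicate only. The genes of best rank in one replicate, nlp-24 and nlp-33 in replicate 2 and nlp-12 and nlp-4 in replicate 1, lie far from the best ranks of the other.

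The pooled peaks were also compared with the replicates site by site. Of the 66 best pooled summits, 33 had a replicate 1 summit within 200 bp (50%, 37.4% to 62.6%), against 44.8% for other genes. A replicate 2 summit was as near at 27 (40.9%, 29% to 53.7%), against 55.6% for other genes. By family these were 8 flp and 25 nlp genes in replicate 1, and 4 flp and 23 nlp genes in replicate 2. Both replicates were that near at 11 sites (16.7%, 8.62% to 27.9%), against 20.4% for other genes, and neither at 17 (25.8%, 15.8% to 38%), against 19.9%. The interval for replicate 2 does not hold the share of other genes, and those for replicate 1, both and neither do.

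Within the window, summits were spread rather than gathered at the start. The 85 pairs of gene and pooled summit came from 83 distinct summits, since 2 summits were shared by neighbours. More than 1 was found for 17 of the 102 genes (3 flp and 14 nlp), beside 4599 of the 19883 other genes. The first 500 bp downstream of a start held 2 of 22 flp summits (9.09%, 1.12% to 29.2%) and 16 of 63 nlp summits (25.4%, 15.3% to 37.9%), beside 21.8% for other genes. The first 500 bp upstream held 7 of 22 flp summits (31.8%) and 12 of 63 nlp summits (19%), beside 24%. Best summits lay within 500 bp of a start in 8 of 19 flp genes (42.1%, 20.3% to 66.5%) and 24 of 47 nlp genes (51.1%, 36.1% to 65.9%), beside 46.2% of other genes. The intervals for the families overlap in each of these counts.

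**Figure D5:**
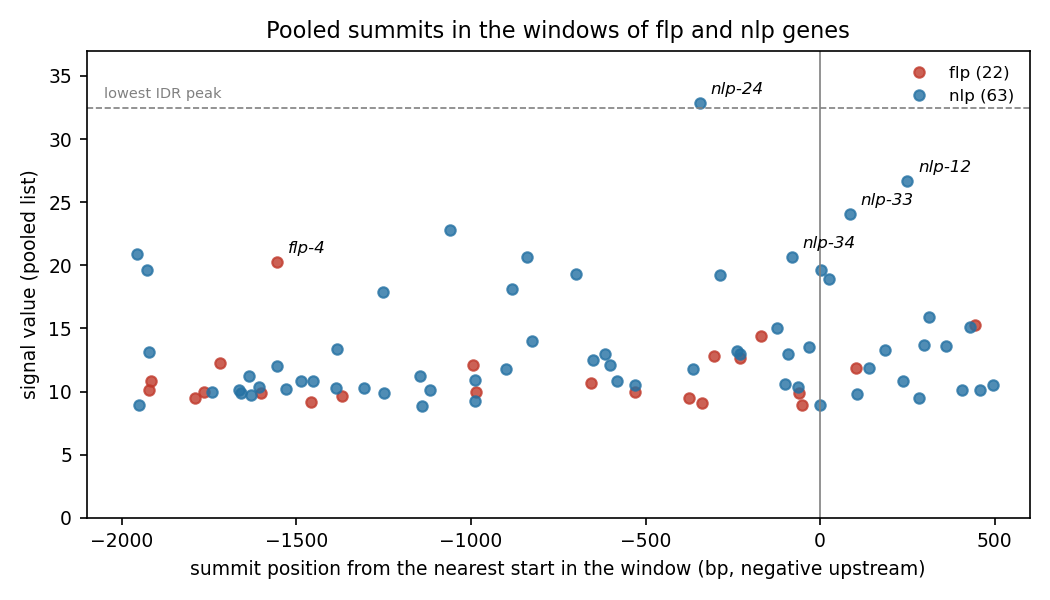
Each point is a pooled summit in the window of a flp gene (red, 22) or nlp gene (blue, 63), by its distance from the nearest start in the window (bp, negative upstream) and its signal value, with the lowest IDR signal as a dashed line. Summits are spread over the window, and 1 point, nlp-24 with 32.9, lies above the line at 32.5.

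By annotation, 34 of the 66 best pooled summits were intergenic and 25 were intronic, of which 14 lay in an intron of the neuropeptide gene itself and 11 in an intron of another gene. Coding exons held 4, those of nlp-4, nlp-29, nlp-68 and, for nlp-39, of its neighbour clec-11. The other 3 touched a UTR, at nlp-17, nlp-76 and flp-28. The nearest protein-coding start was the neuropeptide gene's own in 60 of 66 (90.9%, 81.3% to 96.6%), against 71.3% of 11993 other genes. Windows averaged 2806 bp for flp and 2654 bp for nlp genes, beside 2892 bp for other genes. Summits per Mb of window were 253 for flp and 334 for nlp, beside 324 for other genes. The X chromosome held 32 of the 102 genes (31.4%), against 13.6% of other genes, and 19 of these 32 (59.4%) had a pooled summit, against 63.5% of other X genes.

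Among the 83 distinct summits, TGACAG lay within 100 bp in 2 (2.41%, 0.293% to 8.43%), against 7.59% of the 29917 other pooled summits. The 2 were the summit between nlp-34 and nlp-31, where the motif spans the summit base, and that of flp-3, 14 bp away. The share was 6.35% (1.76% to 15.5%) around the summits of replicate 2 alone and 3.85% (0.469% to 13.2%) around those of replicate 1 alone. All 3 intervals hold the 7.59% of the other pooled summits. The share around other summits of the replicate lists was not counted, so the replicate values have no like background. TGATNNAT lay near 6 of 22 flp summits (27.3%, 10.7% to 50.2%) and 6 of 61 nlp summits (9.84%, 3.7% to 20.2%), against 16.5%. GAGAGA lay near 0 of 22 flp and 8 of 61 nlp summits (13.1%, 5.84% to 24.2%), against 13.6%. Median GC content was 35.8% in both the neuropeptide windows and the others. Both strands were read, and a window could count for more than 1 motif.

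Genes that make peptides from the precursors were examined as a list of 9, of which 8 had a pooled summit, 5 a summit in replicate 1, 6 in replicate 2 and 5 in both. The shares were 88.9% in the pooled list (60.3% of the other protein-coding genes), 55.6% in replicate 1 (other genes 37.4%), 66.7% in replicate 2 (other genes 52.8%) and 55.6% in both (other genes 24.6%). With 9 genes these shares are coarse. The convertase gene egl-3, which cuts most neuropeptide precursors, had an IDR peak at -1247 with pooled rank 78 and signal 36.7, ahead of every flp and nlp gene. It ranked 413 in replicate 1 with 14.1 and 90 in replicate 2 with 21.5. The carboxypeptidase gene egl-21, which trims the cut ends, had a pooled rank of 382 at -92 with signal 24.7, and ranked 119 in replicate 1 and 5184 in replicate 2. Thus egl-3 stood within rank 1000 in both replicates, as did 0.835% of the genes outside the flp and nlp families.

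Receptor genes were counted by name and numbered 103. A pooled summit was found for 69 (67%), beside 60.3% of the other protein-coding genes, with 38 in replicate 1 (36.9%, other genes 37.4%), 54 in replicate 2 (52.4%, other genes 52.8%) and 22 in both (21.4%, other genes 24.6%). None had an IDR summit (other genes 0.443%) or a pooled rank of 1000 or better (other genes 3.74%). The median best rank was 14009, beside 11592 for other genes. Of 9 genes for dense-core vesicles, 6 had a pooled summit (66.7%, other genes 60.3%) and 4 a summit in replicate 1 (44.4%, other genes 37.4%). In replicate 2 there were 8 (88.9%, other genes 52.8%) and in both 4 (44.4%, other genes 24.6%). Of 7 other peptide genes, including those for the PDF peptides, 3 had a pooled summit (42.9%, other genes 60.3%). Summits of both replicates were found for 1 (14.3%, other genes 24.6%). No gene of either list reached rank 1000 in the pooled list (other genes 3.74%). With 9 and 7 genes these shares are coarse.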

How the data were processed

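UNC-62 ChIP-seq was deposited as narrowPeak lists for 2 biological replicates of 1 group. Per the deposited readme texts, the authors made 1 list from each replicate and 1 from both pooled, each against a control from another series, not analysed here, and thresholded them by IDR. No source used here gives the aligner, the caller or the threshold set for IDR. The signal value per peak, deposited by the authors, was used to rank peaks within a list and to describe single peaks. The ce11 lists alone were used, with genes and UTRs of Ensembl release 115. The summit offset deposited for each peak is the middle of the peak, whose width is 376 bp, or 390 bp in the replicate 2 list. Depth is unknown. Intervals are 95% exact Clopper-Pearson for shares, Newcombe for differences and order-statistic for medians, and a count of 0 allows up to 3 counts of the total. Computed from the lists were shares, ranks, offsets and motif matches in windows of 201 bp. The lists differ in length, so ranks are comparable only within a list.

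The genes and lists were chosen with earlier results of these data known, so no test was made on them. Genes were named where they had an IDR summit, a pooled rank of 1000 or better, or rank 1000 in both replicates, filled up to 10 by pooled rank, with all members of the small peptide lists and the pathway genes that passed the first 2 criteria. All 102 names matched the RefSeq gene table. Counting was tested on simulated data. SciPy 1.17.1 and statsmodels 0.14.6 gave the intervals, pandas 2.3.3 and NumPy 2.4.6 the counts and matplotlib 3.10.9 the figures, under Python 3.11.15.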

Additional observations from a re-analysis of the deposited data

How the results depend on the processing

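Of 31 alternative values, 21 stayed within the spread of the reported value and 10 moved. With IDR peaks at or above their median signal, the share of neuropeptide genes with a summit was 0%, since nlp-24 ranks 107 of 114. The pooled share was 38.2% in a window of 1000 bp upstream to 200 bp downstream, where the other genes gave 39.9%, and 37.3% with peaks at or above the median signal, where they gave 37%. With each summit counted only for the nearest start it was 59.8%, where the other genes gave 46.9%, and in replicate 1 alone 41.2% (31.5% to 51.4%), where they gave 28.2%. Those intervals do not hold the share of other genes, and as reported they did. For flp genes in replicate 2 the interval did not hold the other genes' share as reported, in the narrow window or with the stricter list, and held it under nearest start only. With 1 replicate left out, the values are those of the other replicate's own list, since no list was pooled anew. The share was then 43.1% in replicate 1 (other genes 37.4%) and 49% in replicate 2 (other genes 52.8%). The share with both replicates was 10.8% in the narrow window, 6.86% with the stricter lists and 13.7% with replicate summits within 200 bp of each other. These settings admit fewer summits by construction. The median best rank ranged from 7497.5 to 12069 with 1 replicate left out, in shorter lists. The difference flp minus nlp was -33.3 percentage points without replicate 1 and -11 without replicate 2. In the pooled list it was -16.4 with the stricter list and 2.14 (-18.3 to 21.1) for the nearest start only, so its sign there is not fixed. Under nearest start only, the flp share stayed below the nlp share in replicate 1 (35.5% against 43.7%) and in replicate 2 (22.6% against 50.7%). The Meis core share ranged from 3.85% to 6.35% with 1 replicate left out, against 2.41% as reported. The cause was not tested. No paired analysis was possible because there is 1 group.

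Membership in the pooled list or in a replicate list is weak evidence, and nlp-24 alone passed IDR. With 31 flp genes, shares carry wide intervals. Genes just past the window edge were not counted. Inside it were nlp-31 at -1956 and nlp-5 at +496, and outside it nlp-20 at -2032 (rank 3402) and nlp-49 at +555 (rank 3892).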

Other observations

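Beyond the nlp-27 end of the nlp-29 cluster, near K09D9.9 and outside every neuropeptide window, a pooled summit of rank 1876 lay 7.92 kb from the nlp-29 start, and a replicate 2 summit of rank 472 lay at 7.98 kb. Replicate 1 had none there. It was singled out after its values were seen.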
